A study of Mus musculus with 18 samples.

Results

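The cytochrome P450 genes are the protein-coding genes of the mm9 GENCODE annotation on chromosomes 1 to 19 whose symbol is *Cyp* with a number, a letter, and a number, and this symbol rule gave 90 of 21418 protein-coding genes. They fell into 38 subfamilies, of which 28 held 1 gene, and 56 of the 90 genes lay in 8 tandem clusters, where 3 or more members followed each other with gaps of at most 200 kb. Open chromatin had been mapped by fast-ATAC-Seq (the Tn5 transposase cuts and tags the DNA it can reach) in isolated liver macrophages (LMs) of male C57BL/6J mice fed a high-fat, high-sucrose diet for 4 weeks. The 18 libraries came from 3 genotypes, namely *Reverb/Scap*-hTKO, *Reverb*-hDKO, and control, with 3 replicates of each at zeitgeber time (ZT) 10 and at ZT22. Adult control mice had received an adeno-associated virus that makes GFP under the hepatocyte-specific TBG promoter, and the other mice the same virus with CRE, which removed the floxed alleles of *Rev-erb*α and *Rev-erb*β in hepatocytes of *Reverb*-hDKO mice and those of *Rev-erb*α, *Rev-erb*β, and *Scap* in hepatocytes of *Reverb/Scap*-hTKO mice. The deletion was therefore directed at hepatocytes and not at the macrophages that were measured, and which floxed alleles the control mice carried is not given in the sources used here.

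The deposited list holds 69499 open regions, 68533 of them on chromosomes 1 to 19, and gives nothing but the position of each. It is 1 list for all 18 libraries, so a region may have been open in any of them, the depth of each library is unknown, and no value per sample, spread between replicates, or comparison of genotypes or times could be had. A region was given to a gene when its midpoint lay in the gene body or within 5 kb of either end. A start was called open when the edge of a region lay within 1000 bp of the start of an annotated transcript. As a check of the labelled cells, 10 of the 14 macrophage markers on these chromosomes had an open start (71.4%, 95% Wilson interval 45.4% to 88.3%), and this interval includes the 58.0% of all protein-coding genes. *Emr1* (F4/80), *Clec4f*, and *Timd4* were among them, whereas *Csf1r*, *Cd163*, *Marco*, and *Mpeg1* did not have an open start. The starts of these markers had a median CpG ratio of 0.17, and over genes with CpG-poor starts, as defined below, the share was 27.1%. Starts were open at 14 of 15 hepatocyte markers (interval 70.2% to 98.8%) and 9 of 10 endothelial markers (59.6% to 98.2%). They were open at 4 of 10 stellate cell markers (16.8% to 68.7%) and 1 of 10 neuron and muscle markers (1.79% to 40.4%). *Alb*, *Apoa1*, and *Apob* were among the open hepatocyte genes, so the list does not tell in which cells of the preparation a cytochrome P450 gene was open, and the part of hepatocyte DNA in the results was not tested.

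Cytochrome P450 enzymes are heme proteins that insert oxygen into lipids, steroids, and foreign compounds, and most of them receive electrons from the reductase POR in the endoplasmic reticulum. The liver, above all the hepatocyte, uses them to make bile acids from cholesterol and to clear drugs and toxins. Enzymes of the same subfamily are close in sequence, and many arose by tandem duplication, so that their genes stand side by side. Their transcription in liver is known to depend on HNF4A, C/EBP factors, and the receptors CAR, PXR, PPARα, and AHR, and several follow the clock through DBP, TEF, HLF, and the REV-ERBs.

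Open sequence before the starts of 7 members is shown first, to set enzymes with different roles and with different motifs beside each other. The letters are from the NCBIM37 assembly (mm9), 5′ to 3′ on the strand that is transcribed, and they end before the first base of the gene. Capitals mark the matches of the motifs searched, which are short strings of bases that liver and macrophage factors are known to bind. The same stretches of *Cyp2r1*, *Cyp26a1*, *Cyp1a2*, and *Cyp2e1* held no match and are not shown. The 7 shown all hold a match, so they do not tell how often regions at members have one. The bile acid genes are *Cyp7a1* (chr4:6202918-6203124, minus strand), with a FOXA match, and *Cyp8b1* (chr9:121825424-121825557, minus strand), with an HNF4A match.
Cyp7a1: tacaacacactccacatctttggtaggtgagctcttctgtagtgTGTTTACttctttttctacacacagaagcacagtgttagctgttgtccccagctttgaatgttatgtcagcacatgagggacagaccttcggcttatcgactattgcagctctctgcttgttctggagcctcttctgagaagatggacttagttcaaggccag
Cyp8b1: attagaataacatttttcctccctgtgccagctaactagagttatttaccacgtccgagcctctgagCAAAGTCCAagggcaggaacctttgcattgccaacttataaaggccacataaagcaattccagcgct
For the drug-metabolizing enzymes, *Cyp3a11* (chr5:146691541-146691614, minus strand) has the REV-ERB/ROR motif, and *Cyp2b10* (chr7:26682556-26682638, plus strand) and *Cyp2a5* (chr7:27620277-27620323, plus strand) have the same 8 bases, which match both the C/EBP motif and the D-box. *Cyp2b10* also has an AHR match. These 3 were chosen after their values were seen.
Cyp3a11: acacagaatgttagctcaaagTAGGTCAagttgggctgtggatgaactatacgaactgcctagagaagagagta
Cyp2b10: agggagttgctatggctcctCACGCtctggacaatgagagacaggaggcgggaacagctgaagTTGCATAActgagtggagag
Cyp2a5: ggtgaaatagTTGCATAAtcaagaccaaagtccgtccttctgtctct
*Cyp17a1* (chr19:46747605-46747842, minus strand) of steroid synthesis has matches of the nuclear receptor, C/EBP, D-box, HNF1, and AHR motifs. *Cyp4a32* (chr4:115273341-115273491, plus strand), a fatty acid hydroxylase, has an HNF1 match.
Cyp17a1: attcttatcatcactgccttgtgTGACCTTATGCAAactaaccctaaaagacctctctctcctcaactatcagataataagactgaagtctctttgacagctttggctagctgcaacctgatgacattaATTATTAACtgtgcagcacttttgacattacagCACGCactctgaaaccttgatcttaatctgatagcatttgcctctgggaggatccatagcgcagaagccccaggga
Cyp4a32: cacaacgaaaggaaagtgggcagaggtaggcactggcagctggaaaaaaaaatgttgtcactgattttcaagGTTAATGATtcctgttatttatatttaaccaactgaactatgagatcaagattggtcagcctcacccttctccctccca

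Of the 90 cytochrome P450 genes, 40 had an open start, or 44.4% with a 95% Wilson interval of 34.6% to 54.7%, and over all protein-coding genes the share was 58.0%. At least 1 open region lay at 54 members, or 60.0%, beside 72.0% of all protein-coding genes. The remaining 36 members had none, 16 had 1 region, 19 had 2, 12 had 3, 5 had 4, and 2 had 5. In all, 118 distinct regions lay at members, of which 2 were counted for both *Cyp26c1* and *Cyp26a1*, which lie next to each other. Per 10 kb of gene body and flanks, the median member had 0.36 regions, and the median protein-coding gene had 0.51. The Wilson intervals cover counting error only, and the members are not independent draws, since neighbors share sequence.

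Most members have starts poor in CpG, the dinucleotide that is dense at the starts of housekeeping genes. The ratio of observed to expected CpG within 500 bp of the start had a median of 0.16 over members and of 0.56 over all protein-coding genes. With the limit drawn at 0.5, a value chosen after the files had been seen, 80 members were CpG-poor. Of these, 31 had an open start (38.8%, interval 28.8% to 49.7%), and the share over all 9851 CpG-poor genes was 27.1%. Of the 10 CpG-rich members, 9 had an open start, and the share over all CpG-rich genes was 84.3%. The share of open starts over members was thus lower than that of all protein-coding genes. Within the CpG-poor class it was above that of all CpG-poor genes, which the interval of the CpG-poor members did not include. Within the CpG-rich class the 10 members could not be told apart from all CpG-rich genes. No test was made of these shares.

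**Figure D1:**
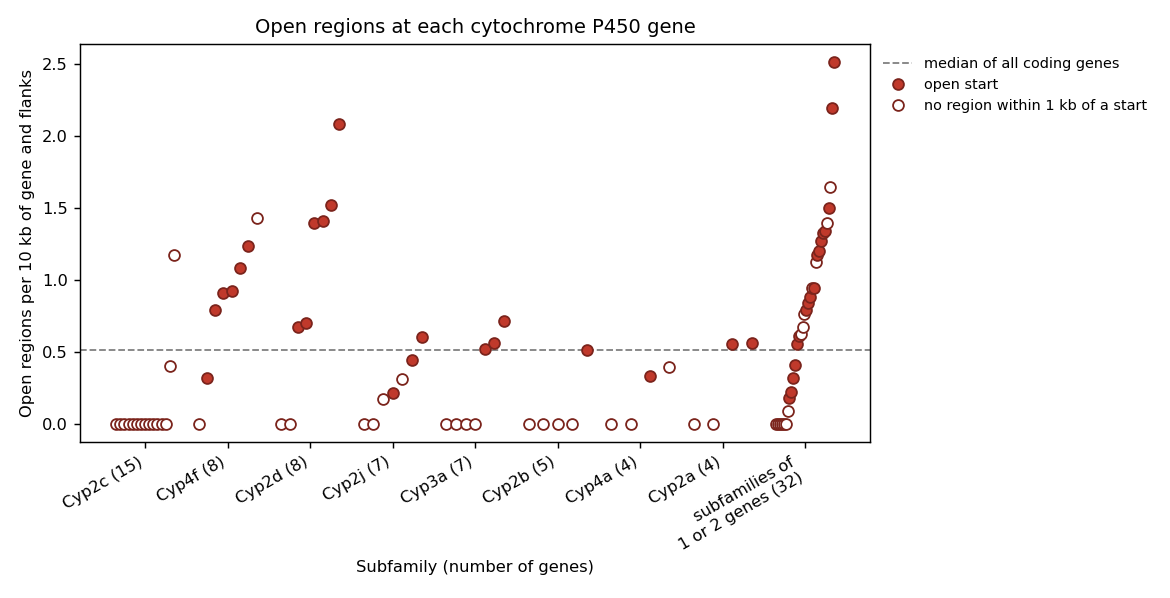
Open regions per 10 kb of gene body and 5 kb flanks for each of the 90 genes, by subfamily, with filled points for genes with an open start and a dashed line at the median of all protein-coding genes, 0.51. Of the 15 *Cyp2c* genes, 13 lie at 0, whereas 6 of the 8 *Cyp2d* genes lie between 0.67 and 2.08.

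Members were grouped by role from a fixed list and by subfamily, so a few enzymes stand outside the group of a role they also have. The 5 enzymes listed for bile acids all had an open start, with an interval of 56.6% to 100%. This interval includes the 58.0% of all protein-coding genes. The 5 genes had 17 regions in all, with a median of 1.17 regions per 10 kb. *Cyp2c70*, which makes muricholic acids in mouse liver and was grouped with the enzymes for foreign compounds by its name, had no region. *Cyp7a1*, the rate-limiting enzyme of the classic pathway, had 3 regions, of which the nearest lay 138 bp before the gene start and was 207 bp wide. The others were 3074 bp before the start and in the downstream flank. *Cyp8b1*, the sterol hydroxylase that leads to cholic acid, had the most regions per 10 kb of all members (2.51), with a region across the start of its short gene and another 930 bp into it. *Cyp27a1*, the mitochondrial sterol hydroxylase, had 4 regions, and the one across its start was the widest at any member (553 bp). *Cyp7b1*, an oxysterol hydroxylase of the alternative pathway, also had 4 regions, but spread over a gene of 171389 bp (0.22 per 10 kb). *Cyp39a1*, which acts on another oxysterol, had 3 regions, and the one at its start also lay within 1000 bp of the start of *Slc25a27*, so it cannot be assigned to either gene.

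Enzymes of steroid hormone synthesis are mostly expressed in adrenal glands and gonads. They had an open start in 1 of 6 genes (16.7%, interval 3.01% to 56.4%, beside 58.0% of all protein-coding genes). That gene was *Cyp17a1*, the hydroxylase and lyase on the way to androgens, with a region of 238 bp that ended 141 bp before its start. All 6 starts of this group were CpG-poor, and the interval also includes the 27.1% of all CpG-poor genes. *Cyp11a1* (side-chain cleavage of cholesterol), *Cyp11b1* (corticosterone synthesis), and *Cyp11b2* (aldosterone synthesis) had no region. *Cyp19a1* (aromatase) and *Cyp21a1* (a corticosteroid hydroxylase) had 1 region each, in the downstream flank and 4302 bp before the start, respectively. In this group 3 genes, *Cyp11b1*, *Cyp11b2*, and *Cyp21a1*, have starts whose sequence is partly repeated elsewhere in the genome, as described below.

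Of the vitamin D enzymes, *Cyp2r1*, the hydroxylase that acts in liver, had 2 regions at its start, 148 bp before it and 292 bp after it. *Cyp24a1*, which inactivates vitamin D, had 1 region, 405 bp before the start. *Cyp27b1*, which activates the hormone mainly in kidney, had none. Among the retinoic acid hydroxylases, the start of *Cyp26a1* was covered by a region, and the gene had 2.19 regions per 10 kb. *Cyp26b1* had 3 regions, all in introns at 3246 bp or more from its start, and *Cyp26c1* had only the 2 regions it shares with *Cyp26a1*. *Cyp46a1*, the cholesterol hydroxylase named for its role in brain, had an open start with a region 181 bp upstream, and its start was CpG-rich (ratio 0.85).

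Among enzymes for foreign compounds, 14 of 42 genes had an open start (33.3%, interval 21.0% to 48.4%, beside 58.0% of all protein-coding genes). All 42 starts were CpG-poor, and the interval includes the 27.1% of all CpG-poor genes. No region lay at 25 of the 42, of which 13 were *Cyp2c* genes. *Cyp1a2*, a liver enzyme induced through AHR, had a region across its start and another 4302 bp upstream. Its neighbor *Cyp1a1*, also induced through AHR, had only a region in the downstream flank that lay near the start of *Edc3*. *Cyp1b1*, an enzyme of the same family known mainly from tissues outside the liver, had 1 region, 714 bp before its start. *Cyp2e1*, which oxidizes ethanol, *Cyp2b10*, a target of CAR, and *Cyp3a11*, a target of PXR, each had 2 regions, with 1 of them across the gene start. For *Cyp3a11* the midpoint of that region lay 1 bp from the start.

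The *Cyp4* genes were the group for fatty acid hydroxylases. Of these, 9 of 15 had an open start (60.0%, interval 35.7% to 80.2%, beside 58.0% of all protein-coding genes). Except for *Cyp4v3* their starts were CpG-poor, and the share over all CpG-poor genes was 27.1%. *Cyp4v3* had 5 regions, 3 of them at its start and 2 in introns within 3702 bp of it. *Cyp4a10* and *Cyp4a14*, targets of PPARα, had no region, and their nearest regions lay 44171 bp and 66293 bp from the starts. Their neighbor *Cyp4a32* had 1 region, 158 bp before the start. For *Cyp4a31* the nearest region ended 1064 bp from the start, just outside the distance used, and *Cyp4f18*, at 967 bp, was just inside it. *Cyp4b1* had an open start, and *Cyp4x1* had no region.

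Of the 15 members in none of these groups, 7 had an open start (46.7%, interval 24.8% to 69.9%, beside 58.0% of all protein-coding genes). They were *Cyp1b1*, 3 *Cyp2j* genes, *Cyp2f2*, which activates toxins in lung and liver, *Cyp2u1*, which also hydroxylates fatty acids but is no *Cyp4* gene, and *Cyp20a1*, whose substrate is unknown. *Cyp20a1* had a single region of 436 bp across its CpG-rich start. *Cyp2w1* had 2 regions, in an intron and in the downstream flank, and *Cyp2g1*, known from olfactory tissue, had none.

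**Figure D2:**
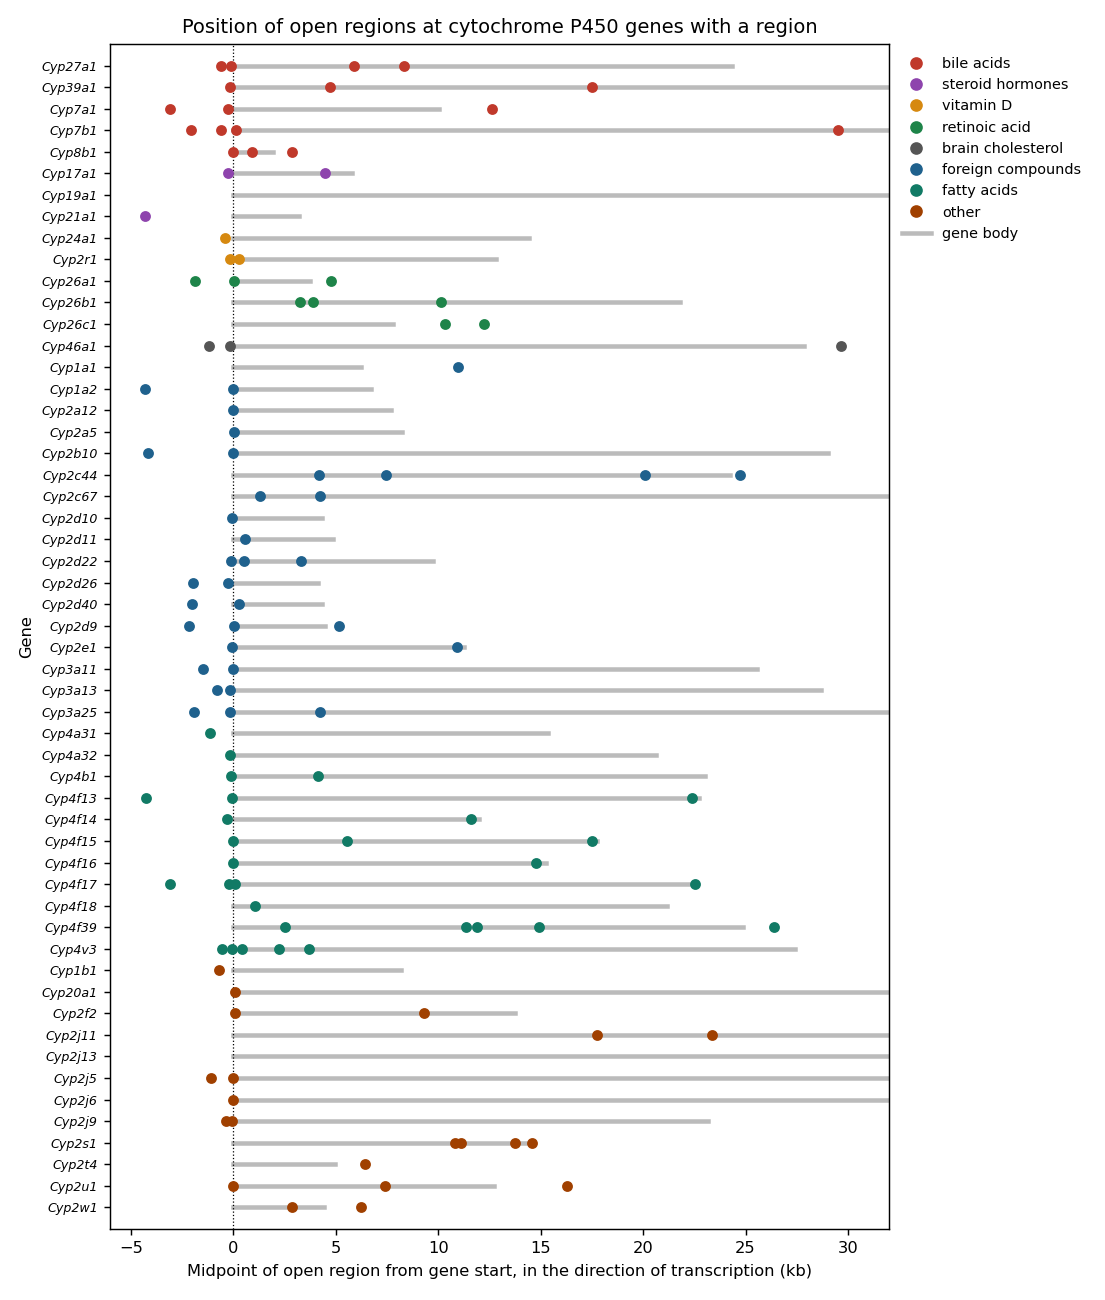
Midpoints of open regions, in kb from the gene start along the direction of transcription, for the 54 members with a region, colored by role, with the gene body in gray. All 5 genes listed for bile acids have a point within 1 kb of 0, whereas the points of *Cyp2s1*, *Cyp26b1*, and *Cyp4f39* lie inside the gene or past its end, and 2 regions beyond 32 kb (at *Cyp19a1* and *Cyp2j13*) are not drawn.

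Over all 118 regions at members, 52 lay at a start (44.1%, beside 39.8% of the regions at all protein-coding genes), 8 in exons (6.78% beside 4.69%), 27 in introns (22.9% beside 45.6%), 16 in the upstream flank (13.6% beside 4.80%), and 15 in the downstream flank (12.7% beside 5.12%). The place was judged from the members alone for the 118 regions, but from every protein-coding gene for the comparison. A region in the flank of a member and at the start or in the body of another gene thus counts as flank only among members. Examples are the regions near *Egln2* and *Edc3*. The shares by place are therefore not fully comparable. A region covered the gene start itself in 21 of the 40 members with an open start. The median width of the 118 regions was 176 bp, beside 164 bp over the regions at all protein-coding genes. The smallest and commonest width of the list was that of 46 of the 118 (39.0%, beside 44.8%). Of the 118 regions, 3 lay within 1000 bp of the start of another protein-coding gene.

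The 8 subfamilies with at least 3 genes held 58 members, of which 22 had an open start (37.9%), and the 32 members of smaller subfamilies had an open start in 18 (56.2%). Over all protein-coding genes the share was 58.0%, and over those with CpG-poor starts 27.1%. All genes of the 8 larger subfamilies were CpG-poor, whereas the 10 CpG-rich members, 9 of them with an open start, lay in smaller ones. The part of CpG content in this difference was not tested. In the *Cyp2d* subfamily, whose human counterpart metabolizes many drugs, 6 of 8 genes had an open start, with *Cyp2d9* the highest at 2.08 regions per 10 kb, and *Cyp2d12* and *Cyp2d34* without any region. In the *Cyp4f* subfamily, which hydroxylates fatty acids and leukotrienes, 6 of 8 genes had an open start. *Cyp4f39* had the most regions of this subfamily (5), but none within 1000 bp of its start, and *Cyp4f40* had none. The interval for 6 of 8 genes is 40.9% to 92.9%.

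Intermediate shares were seen in *Cyp2a* (2 of 4), *Cyp2j* (3 of 7), and *Cyp3a* (3 of 7), and lower ones in *Cyp4a* (1 of 4) and *Cyp2b* (1 of 5). In *Cyp2a*, the start of *Cyp2a5*, a coumarin hydroxylase, was open, and its near relative *Cyp2a4*, a steroid hydroxylase, had no region. In *Cyp2j*, which makes epoxides of arachidonic acid, the 3 open starts belonged to *Cyp2j6*, *Cyp2j9*, and *Cyp2j5*, which are the last members of the cluster in the order of the chromosome. *Cyp2j12* and *Cyp2j8* had no region. In *Cyp3a*, the starts of *Cyp3a11*, *Cyp3a13*, and *Cyp3a25* were open, and *Cyp3a16*, *Cyp3a44*, *Cyp3a57*, and *Cyp3a59* had no region. In *Cyp2b*, *Cyp2b10* was open, and *Cyp2b9*, *Cyp2b13*, *Cyp2b19*, and *Cyp2b23* had no region.

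The *Cyp2c* subfamily had an open start in 0 of 15 genes (interval 0.00% to 20.4%), and 13 of them had no region at all. Its members metabolize drugs and fatty acids, and *Cyp2c70* makes bile acids, as given above. The exceptions without an open start but with regions were *Cyp2c67*, with 2 in introns at 1295 bp and 4234 bp from its start, and *Cyp2c44*, with 4 regions, of which the nearest lay 4198 bp into the gene. *Cyp2c44*, which makes epoxides of arachidonic acid, lies apart from the other *Cyp2c* genes on the same chromosome. *Cyp2c29*, a liver enzyme of this subfamily, was 309926 bp from the nearest region.

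The 8 tandem clusters with 5 kb flanks spanned 4062 kb and held 82 regions, or 2.02 per 100 kb. Beside this stood 2.77 over chromosomes 1 to 19 and 4.50 over all protein-coding genes with their flanks. The spans include the sequence between members, which the value of 4.50 leaves out where it lies beyond the flanks of genes. Of the 82 regions, 56 were assigned to members. Open starts were found in 20 of 56 members inside clusters (35.7%, interval 24.5% to 48.8%) and in 20 of 34 members outside them (58.8%, interval 42.2% to 73.6%). At least 1 region lay at 27 of the 56 and at 27 of the 34. Over all protein-coding genes, starts were open in 58.0%, and over those with CpG-poor starts in 27.1%. Of the 10 CpG-rich members, 9 of them with an open start, only *Cyp2s1* lay in a cluster, and its start was not open. The part of CpG content in the difference between members inside and outside clusters was not tested.

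**Figure D3:**
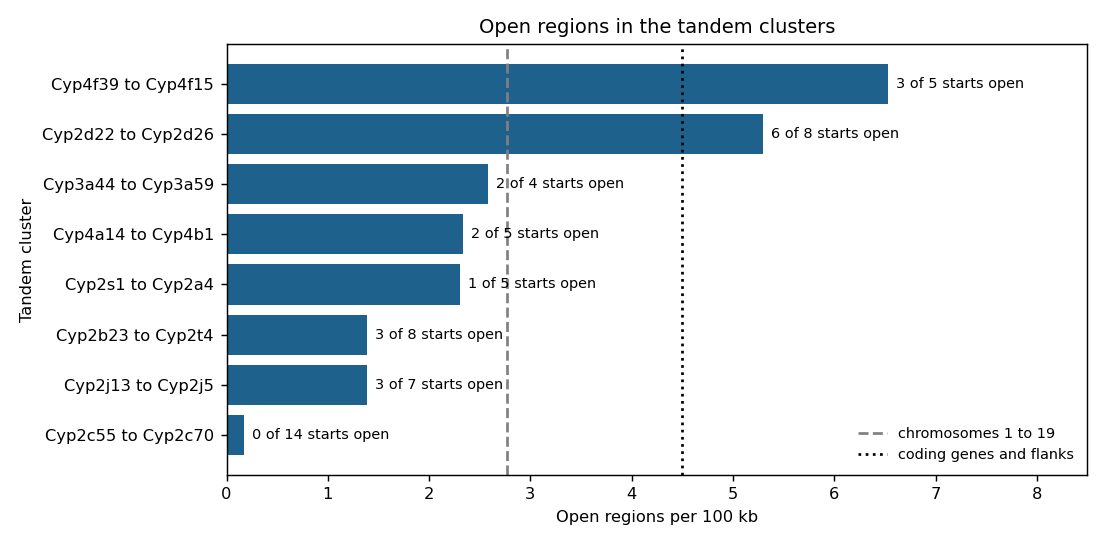
Open regions per 100 kb in each tandem cluster with its flanks, with the number of members whose start was open, and lines at 2.77 for chromosomes 1 to 19 and 4.50 for protein-coding genes with flanks. The clusters run from 0.168 to 6.53, and only the *Cyp2d* and *Cyp4f* clusters pass either line. The bars include the sequence between members, whereas the line at 4.50 covers genes and flanks alone.

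The *Cyp4f39* to *Cyp4f15* cluster on chromosome 17 was the densest, with 16 regions (6.53 per 100 kb) and 3 of 5 starts open. The *Cyp2d22* to *Cyp2d26* cluster on chromosome 15 held 23 regions (5.30 per 100 kb) with 6 of 8 starts open. Of these 23 regions, 5 lay in the bodies of members and 18 between them or in the flanks. The *Cyp3a44* to *Cyp3a59* cluster on chromosome 5 (2.58 per 100 kb), the *Cyp4a14* to *Cyp4b1* cluster on chromosome 4 (2.33), and the *Cyp2s1* to *Cyp2a4* cluster on chromosome 7 (2.30) had 2 of 4, 2 of 5, and 1 of 5 starts open. In the last of these the open start was that of *Cyp2b10*, and *Cyp2s1*, an enzyme of epithelia, had 4 regions in or just past the end of the gene (1.64 per 10 kb) and none at its start.

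The *Cyp2j13* to *Cyp2j5* cluster on chromosome 4 and the *Cyp2b23* to *Cyp2t4* cluster on chromosome 7 both had 1.39 regions per 100 kb, with 3 of 7 and 3 of 8 starts open. In the latter, *Cyp2a5*, *Cyp2a12*, and *Cyp2f2* were open, and the single region at *Cyp2t4* lay in its downstream flank near the start of *Egln2*. The *Cyp2c55* to *Cyp2c70* cluster on chromosome 19 (chr19:39081509-40261823) held 2 regions in 1190 kb (0.168 per 100 kb), both in *Cyp2c67*. A stretch of 714 kb without any region ran across 6 of its members, from *Cyp2c55* to *Cyp2c39*, and another of 573 kb followed *Cyp2c67*. Of the 68514 stretches between neighboring regions on chromosomes 1 to 19, 414 (0.604%) were at least as long as the first of these, so such stretches also occur elsewhere. A stretch of 795 kb on chromosome 7 held *Cyp2b13*, *Cyp2b9*, and *Cyp2a4* of 1 cluster and *Cyp2b23* and *Cyp2b19* of the next, and 350 stretches were at least as long.

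Genes that arose by duplication share sequence, and reads that fit more than 1 place may be lost or placed at random, in a way that is not given in the sources used here. The share of the 32-base words within 1000 bp of the gene start that occur once in the assembly was therefore set beside the open starts. Where at least 90% of the words were unique, 31 of 54 members had an open start (57.4%, interval 44.2% to 69.7%), beside 66.4% of all genes. Below 90%, 9 of 36 members did (25.0%, interval 13.8% to 41.1%), beside 24.5% of all genes. Inside clusters the shares were 11 of 26 (42.3%) and 9 of 30 (30.0%). The share was lower below 90% both in members and in all genes, and the part of repeated sequence in the results was not tested.

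**Figure D4:**
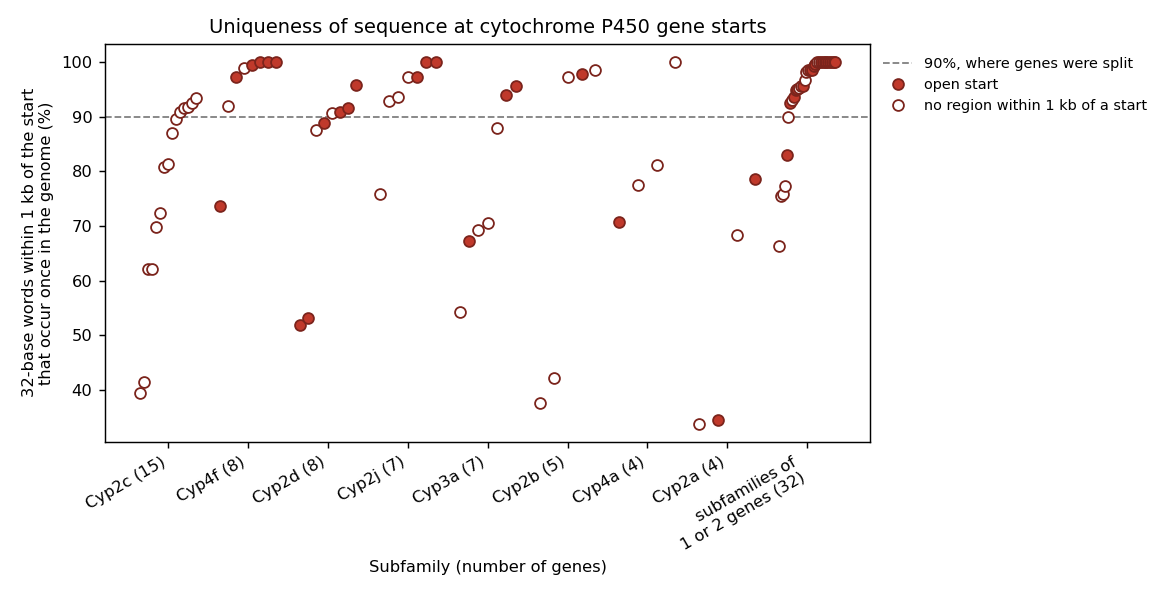
Share of 32-base words within 1 kb of the gene start that occur once in the genome, in percent, for each of the 90 genes by subfamily, with filled points for open starts and a line at 90%. Points of *Cyp2c* genes are empty both above and below the line, and the filled points of *Cyp2d* and *Cyp2a* reach down to 51.8% and 34.5%.

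The members without an open start were not all of repeated sequence, since 23 of the 50 had at least 90% unique words. In *Cyp2c*, these were 5 of 15 genes, among them *Cyp2c38* (92.5%), *Cyp2c65* (91.8%), and *Cyp2c66* (91.5%). *Cyp2c29* had 87.0%, and *Cyp2c40* the lowest value of the subfamily, 39.5%. The whole *Cyp2c* cluster with flanks had 55.5% unique words, beside 66.5% for the *Cyp2d* cluster, 80.1% for the *Cyp4f* cluster, and 53.6% for the *Cyp3a* cluster. Conversely, *Cyp2a5* had an open start with 34.5% unique words, and *Cyp2a4*, its near relative without a region, had 33.8%. For these genes a read may come from either copy, so the difference between them is uncertain. The region at the start of *Cyp2d9* had 39.3% unique words itself, and 20 of the 118 regions had under 90%, whereas in 92 every word was unique. The 2 regions in *Cyp2c67*, the only ones of the *Cyp2c* cluster, had 54.1% and 84.9%. Reads there may also come from another copy, so their place is uncertain too.

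**Figure D5:**
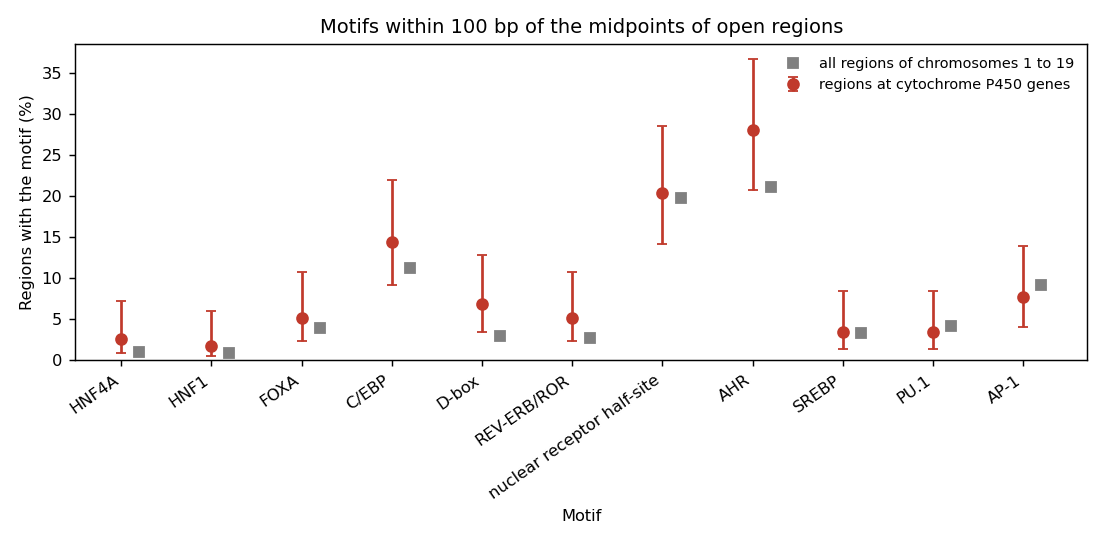
Share of open regions with each motif within 100 bp of their midpoint, in percent, for the 118 regions at members (points, with 95% Wilson intervals) and for all regions of chromosomes 1 to 19 (squares). The interval of the D-box, 3.48% to 12.8%, lies above the square at 2.99%, and those of the other 10 motifs include it.

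The 11 motifs were searched on both strands within 100 bp of the midpoint of each region. HNF4A, the nuclear receptor that directs hepatocyte genes, has the motif CAAAGTCCA, and it was found in 3 of 118 regions at members (2.54%, interval 0.868% to 7.21%) and in 1.00% of all regions. These 3 were the start regions of *Cyp8b1* and *Cyp3a11* and an intron of *Cyp2c44*. In *Cyp8b1* the match lay 67 to 59 bp before the start, as printed above, and in *Cyp3a11* from 1 to 9 bp after it. PU.1, the factor that marks macrophage enhancers, has the motif GAGGAAGT, which was in 4 regions (3.39%, beside 4.18%), at *Cyp4v3* with 2, at *Cyp4f18*, a leukotriene hydroxylase of myeloid cells, and at *Cyp4f16*. All 4 regions belong to fatty acid hydroxylases, and 3 of them lie at a start. That group held 29 of the 118 regions (13.8% with the motif, interval 5.50% to 30.6%). With 2 of the 4 at 1 gene, they are not independent, and no test was made of this split by role.

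The D-box, with the letters TTATGNAA, is bound by the clock output factors DBP, TEF, and HLF and by NFIL3. It was found in 8 regions at members (6.78%), beside 2.99% of all regions, and 5 of the 8 also had the C/EBP motif TTGCNNAA, which can share its letters. Its start regions were those of *Cyp27a1*, *Cyp2b10*, *Cyp2a5*, *Cyp2d22*, and *Cyp17a1*. The REV-ERB/ROR motif TAGGTCA was in 6 regions (5.08%, interval 2.35% to 10.7%, beside 2.67%), of which 2 lay at starts, those of *Cyp3a11* and *Cyp4v3*. It contains the shorter nuclear receptor motif AGGTCA, which was in 20.3% of the regions and in 19.7% of all regions.

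For the remaining motifs the interval of the members included the share of all regions. These were C/EBP (14.4% beside 11.2%), FOXA with TGTTTAC (5.08% beside 3.95%), HNF1 with GTTAATNAT (1.69% beside 0.816%), and AHR with GCGTG (28.0% beside 21.1%). SREBP, the factor that SCAP carries to cleavage, has the motif TCACNCCA, and it was in 3.39% beside 3.35%. For AP-1, with TGANTCA, the shares were 7.63% and 9.10%.

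Start regions and others were also taken apart, for members by their own starts alone and for the comparison by the starts of every protein-coding gene. A region of a member near the start of another gene, such as that of *Cyp1a1* near *Edc3*, thus counts as away from starts. The split into start regions and others did not match CpG content, since the starts of protein-coding genes hold more CpG than those of members, as given above. Over all protein-coding genes, the D-box was in 1.42% of start regions and in 3.41% of the others, and C/EBP in 6.66% and 12.4%. The part of base content in the shares below was not tested. At starts, the intervals of 4 motifs lay above the share of the start regions of all protein-coding genes. These were the D-box (5 of 52 regions, 9.62%, interval 4.18% to 20.6%, beside 1.42%), C/EBP (9 of 52, 17.3%, interval 9.38% to 29.7%, beside 6.66%), and HNF4A and HNF1 (2 of 52 each, 3.85%, interval 1.06% to 13.0%, beside 0.439% for both). For AHR the share at starts was 26.9% beside 37.2%, with an interval of 16.8% to 40.3%. Away from starts, the interval of AHR alone excluded the share of protein-coding genes, with 19 of 66 regions (28.8%, interval 19.3% to 40.6%) beside 14.9%. No test was made of these shares, and the intervals were not adjusted for the number of motifs. A match of letters is not a bound site, and a window without a match says nothing of the factor.

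The genes that serve the cytochrome P450 enzymes or act after them were described by the same measures, beside open starts in 58.0% of all protein-coding genes and in 84.3% of those with CpG-rich starts. All 9 genes for electron donors and heme had an open start, among them *Por*, with 14 regions, and *Alas1*, the first enzyme of heme synthesis, with 5, and the interval of this share was 70.1% to 100%. The CpG ratio at the starts of these lists had a median of 0.74 for electron donors and heme, 0.59 for the regulators, and 0.22 for the conjugating enzymes. Of the 24 regulators, 24 had an open start (interval 86.2% to 100%), with 24 regions at *Rxra*, 11 at *Hnf4a*, and 9 at *Nr1i2* (PXR). The region nearest the gene start lay 19059 bp from it for *Hnf4a* and 3040 bp for *Por*. The open starts of these genes were those of other annotated transcripts. The conjugating enzymes had an open start in 30 of 62 genes (48.4%). These were 19 of 22 glutathione transferases, 5 of 21 glucuronosyltransferases, 4 of 17 sulfotransferases, and 2 of 2 epoxide hydrolases. The glutathione transferases were taken by symbol alone, which also brought in *Gstcd*. The 21 glucuronosyltransferase genes held 17 distinct regions, some of them counted for several genes. Their medians were 0.41 regions per 10 kb for glucuronosyltransferases, 0.37 for sulfotransferases, and 1.10 for glutathione transferases, beside 0.36 for the cytochrome P450 genes.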

How the data were processed

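Fast-ATAC-Seq had been performed on LMs in 18 libraries. The authors used the ATAC-Seq pipeline of the Kundaje laboratory. Reads were freed of adapters, mapped to mm9 (Bowtie), pooled over biological replicates, and passed to a peak caller. Its name and threshold, the handling of reads that fit several places, and the way in which peaks were joined are not given in the sources used here. The deposited list holds positions alone (chromosome, start, end), with no read count, score, or sample, so the depth of each library is unknown, and no test was made. Starts, which are counted from 0 in the list, are given from 1. Genes, transcripts, and sequence were from GENCODE and the NCBIM37 assembly, and 0 regions ran past the end of a chromosome. Lengths of genes were accounted for by giving regions per 10 kb.

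Roles, partner genes, markers, motifs, and alternatives were written down with earlier results of these data known, as was the choice of the members. Of the listed markers and partner genes, 4 were found under an older symbol of the annotation through the names of RefSeq (GRCm38.p6), and *Vsig4* lies on the X chromosome, which was not used. Named genes were all members of the smaller role groups, 8 well-known enzymes, the members with most and fewest regions in each subfamily of at least 3 genes, the 5 densest members, and the ends of each cluster. Other genes named were chosen after their values were seen. Sequences were those of the region nearest the start, shown up to the gene start. The 7 printed, all with a motif match, were picked from those of the named genes. Assignment, open starts, motif search, and word counts were tested on simulated data. Python 3.11.15, NumPy 2.4.6, SciPy 1.17.1, numba 0.67.0, and matplotlib 3.10.9 were used.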

Additional observations from a re-analysis of the deposited data

How the results depend on the processing

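Of 26 alternatives to the choices made, 18 left the value of the cytochrome P450 genes within its counting interval or within 1.5 times, and 8 moved it. With only regions of at least 200 bp, 20% of members had an open start (35.5% of all protein-coding genes), 32.2% had at least 1 region (50.0%), 36 regions remained at members, the median was 0.00 per 10 kb (0.00), and the clusters held 0.640 regions per 100 kb (0.850 over chromosomes 1 to 19). Without the 5 kb flanks, 36.7% of members had at least 1 region (54.9% of all protein-coding genes), 53 regions lay at members, and the median was 0.00 per 10 kb (0.17). Adding the 5 symbols with further letters, such as *Cyp3a41a*, gave open starts in 42.1%.

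No paired analysis was possible because regions carry no measurement per library. Nor was any replicate left out, for the same reason. The depth of the libraries, which limits the regions that were found, is not known. A gene without a region was not detectably open in the merged list, which does not show that it was closed in every cell.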
